A study of Homo sapiens with 25 samples.

Results

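The 10 genes described here encode heat shock proteins and chaperones: HSPH1, HSPA4, HSPA8, HSPA5, HSP90AA1, HSP90AB1, DNAJB1, DNAJA1, HSPD1 and HSPE1. They are 10 of 19974 protein-coding genes of the RefSeq table, and for each one every deposited peak that touched the gene span or the 10 kb on either side of it (the window) was collected. The list was chosen from the chaperone family with the tag peaks of these libraries known, so the tag values below describe the choice and carry no test.

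HCT116, an established human colorectal carcinoma line, carried either the empty lentiviral vector pSin (control) or pSin with the full coding sequence of FOXD2, a forkhead transcription factor, and both were kept under puromycin. Histone marks (H3K4me1, H3K27ac, H3K4me3) were precipitated from native chromatin cut with MNase, and the methyltransferase MLL4 from formaldehyde-crosslinked, sonicated chromatin. For binding, HCT116 received a pcDNA3.1 plasmid for FOXD2 with 3xflag and 6xhis tags, and crosslinked chromatin was precipitated with antibodies to each tag; no library from cells without the tags was used here. There were 2 peak lists per group for H3K4me1, H3K27ac, MLL4 and each tag, and 1 per group for H3K4me3, 18 in all, while 7 inputs are not used here. The labels do not say that replicates were separate cultures, so their spread may be technical.

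Chaperones help other proteins fold, keep them from aggregating and prepare them for degradation. HSP70 proteins bind exposed hydrophobic stretches in a cycle driven by ATP, J proteins deliver clients and start that cycle, and HSP110 proteins reset it by exchanging the nucleotide. HSP90 finishes the folding of kinases and receptors, and the mitochondrial chaperonin encloses matrix proteins in a chamber. Under heat or proteotoxic stress, heat shock factors bind repeats of the unit nGAAn upstream of many of these genes. H3K4me3 marks active transcription starts, H3K4me1 marks enhancers and the shoulders of promoters, H3K27ac marks active elements of both kinds, and MLL4 deposits H3K4me1 at enhancers.

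The stretches just upstream of the starts are shown because the tag sites of these genes lay mostly away from them. All are from RefSeq (GRCh38.p14), read 5′ to 3′ along the gene, and end at the base before the start. Capitals mark letters that match a searched motif on either strand. The 2-unit heat shock element was GAANNTTC or TTCNNGAA. Its 3-unit form adds another unit after 2 more bases of any kind and so holds 2 overlapping 2-unit elements. A CCAAT box was those letters alone. The endoplasmic reticulum stress element was a CCAAT box followed, after 9 bases of any kind, by CCACG. The letters searched for the forkhead family were TGTTTAC.

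HSP90AA1, chr14:102087045-102087294, minus strand: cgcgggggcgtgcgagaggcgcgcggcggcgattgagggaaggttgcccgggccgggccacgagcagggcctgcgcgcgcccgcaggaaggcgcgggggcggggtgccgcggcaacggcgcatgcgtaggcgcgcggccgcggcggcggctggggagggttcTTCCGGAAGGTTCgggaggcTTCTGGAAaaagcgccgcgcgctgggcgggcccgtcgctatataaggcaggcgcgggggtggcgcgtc

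DNAJB1, chr19:14518398-14518647, minus strand: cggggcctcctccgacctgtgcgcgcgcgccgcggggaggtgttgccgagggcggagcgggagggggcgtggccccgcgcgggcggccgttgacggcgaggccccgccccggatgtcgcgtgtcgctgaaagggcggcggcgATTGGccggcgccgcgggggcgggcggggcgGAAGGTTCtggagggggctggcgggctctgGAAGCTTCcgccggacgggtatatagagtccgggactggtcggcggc

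HSPA5, chr9:125241344-125241593, minus strand: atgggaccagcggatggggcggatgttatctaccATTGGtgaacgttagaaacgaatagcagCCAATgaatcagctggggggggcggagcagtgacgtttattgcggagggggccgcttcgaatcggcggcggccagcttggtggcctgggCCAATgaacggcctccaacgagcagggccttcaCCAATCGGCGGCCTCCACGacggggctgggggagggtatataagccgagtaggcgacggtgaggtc

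HSPH1, chr13:31162389-31162638, minus strand: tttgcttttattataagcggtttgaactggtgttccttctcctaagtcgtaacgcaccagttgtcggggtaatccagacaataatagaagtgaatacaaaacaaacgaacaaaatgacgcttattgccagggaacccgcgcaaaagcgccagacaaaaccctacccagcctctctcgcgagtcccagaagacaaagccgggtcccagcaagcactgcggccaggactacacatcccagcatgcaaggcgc

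HSPD1, the stretch shared with HSPE1, chr2:197500275-197500378, minus strand: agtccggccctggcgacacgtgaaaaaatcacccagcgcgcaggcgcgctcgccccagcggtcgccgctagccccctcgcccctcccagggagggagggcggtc

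Within 250 bases upstream, 4 of the 16 annotated starts of the 10 genes held the 3-unit element, each in another gene, against 0.441% of 34943 promoters. In HSP90AA1 the match was TTCCGGAAGGTTC, from 88 to 76 bases upstream of the start of the short transcript. HSP90AB1 held TTCTGGAAGATTC and TTCTGGAAGCTTC upstream of the start farthest in, HSPA8 held GAAAGTTCCAGAA and TTCTGGAAGGTTC, and HSPD1 held the overlapping pair TTCTGGAAAGTTC and GAAAGTTCTGGAA upstream of its second start. The 2-unit element was found at 6 of 16 starts against 11.6% of promoters: those 4, a start of DNAJB1 with GAAGGTTC and GAAGCTTC, and that of DNAJA1, where it lay beyond the 152 bases that separate DNAJA1 from the neighbouring gene. HSPA5, the endoplasmic reticulum HSP70, was the only one of the 10 with the stress element, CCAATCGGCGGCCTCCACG, which 0.0744% of promoters held, and it had 4 CCAAT boxes. CCAAT boxes occurred at 6 of 16 starts against 32.0% of promoters. The forkhead letters occurred at 1 of 16 starts, in HSP90AA1 from 12 to 6 bases upstream of its long-transcript start, against 2.98% of promoters. The window shown for HSPH1 held none of these letters. These matches describe the letters and are not binding sites.

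A tag site is a merged region with a peak of all 4 tag lists (FLAG and 6xHis, 2 each). Of the 10 genes, 9 had a tag site in the window, against 17.3% of all protein-coding genes and 23.1% of genes with H3K4me3 in both lists; the list was chosen with tag peaks in view, so nothing is read from that count. The 9 genes held 36 distinct sites. Of these, 6 (16.7%) touched H3K4me3 of both lists, 22 touched the gene span without H3K4me3 of both lists, and 8 lay in the flanks. Among all 5399 tag sites of the series, 32.7% touched H3K4me3. By their midpoints, 3 sites lay upstream of the gene span, 23 inside it and 10 past its 3′ end. The table of genes gives spans only, so exons, introns and UTRs under the sites were not resolved. The fold given for a site is the authors' enrichment of its best peak in each list, and the sequencing depth behind it is unknown.

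**Figure D1:**
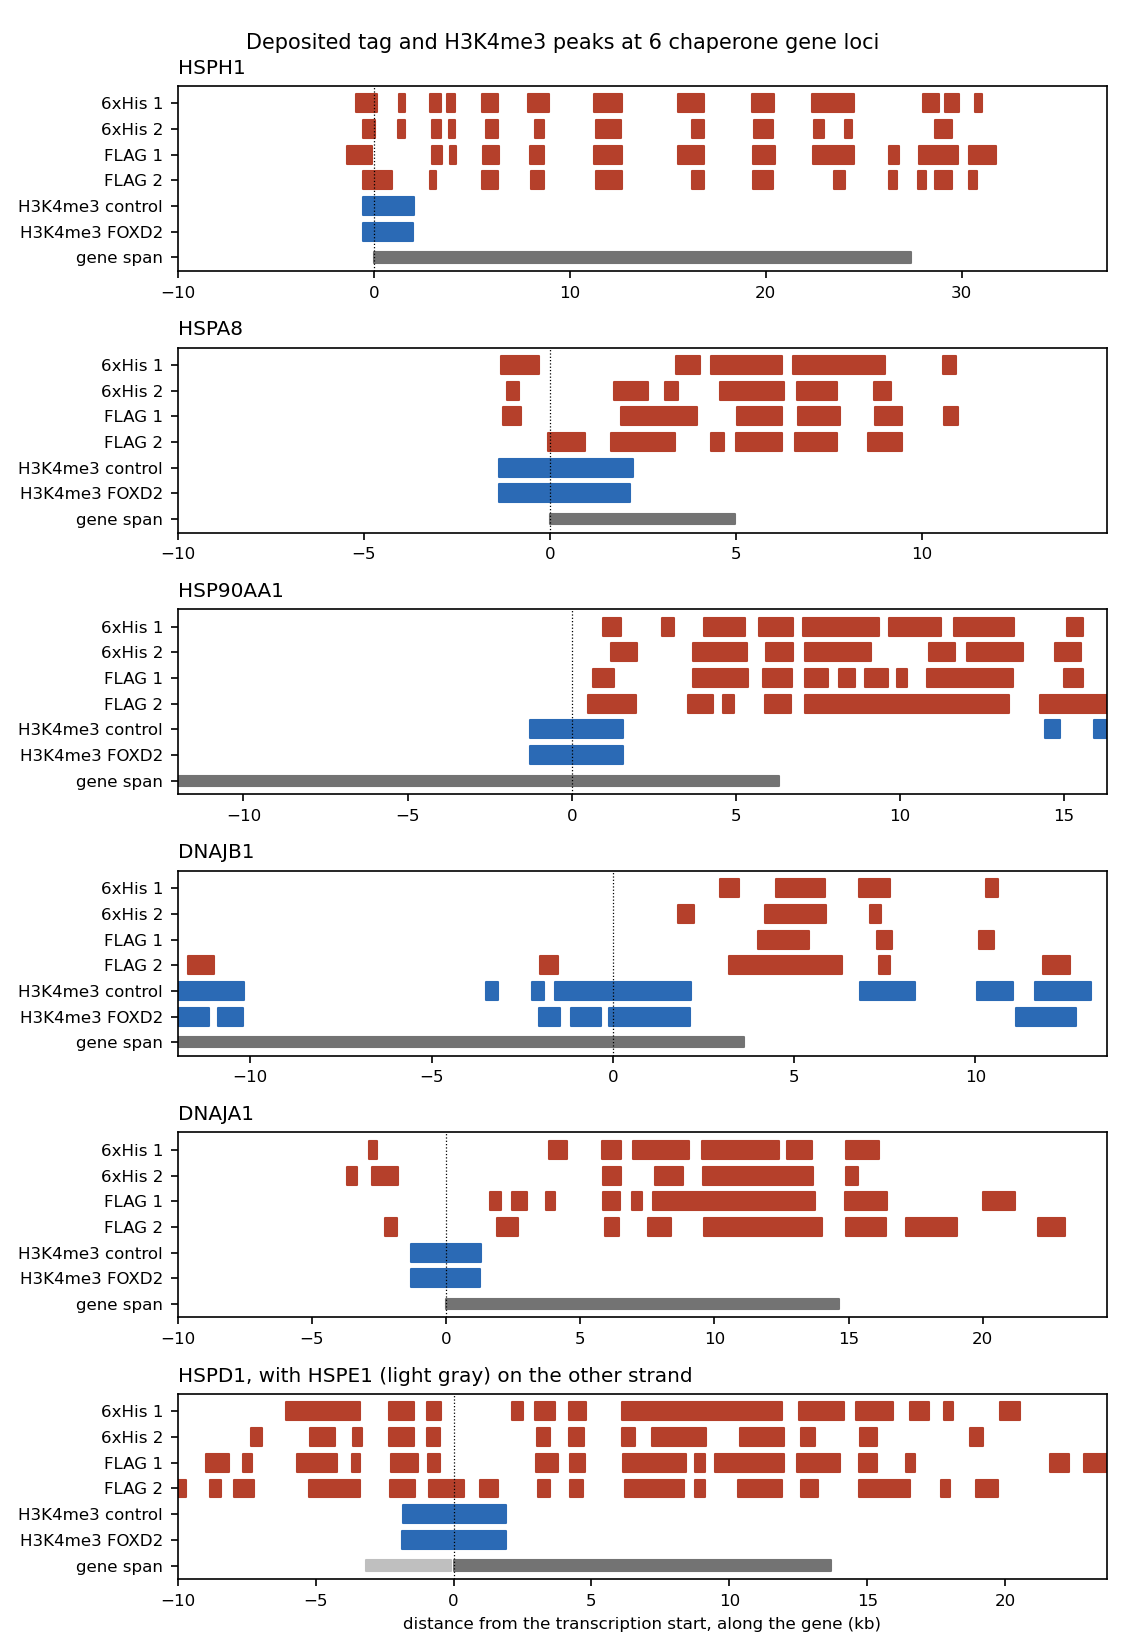
Deposited peaks at 6 loci against distance in kb from a transcription start, read along the gene; red bars are peaks of the 4 tag lists, blue bars those of the 2 H3K4me3 lists, and gray bars the gene spans. Zero is the 5′ end of the span, except for HSP90AA1 and DNAJB1, where it is the start whose upstream bases are printed above. The first parts of the long HSP90AA1 and DNAJB1 spans are not drawn; peaks of 1 or 2 tag lists lie there. Red bars recur through HSPH1, and in the part drawn of HSP90AA1 and DNAJB1 those shared by all 4 lists lie past the start at zero and run beyond the end of the gene.

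HSPH1 encodes an HSP110 chaperone, the nucleotide exchange partner of HSP70 (chr13:31134973-31162388, minus strand). It held 9 tag sites, 7 of them inside the gene away from H3K4me3. The strongest, chr13:31141908-31143070, was 19.9 kb into the gene, with folds of 9.97 and 8.66 in the 6xHis lists and 10.3 and 7.67 in the FLAG lists. It was number 3 of the 5399 sites by the rank of −log10 q of its best peaks, summed over the 4 lists, and 10.3 was the highest fold in the whole first FLAG list. The next, chr13:31149695-31151147, had folds of 7.42 and 11.9 (6xHis) and 7.23 and 8.19 (FLAG). Another, chr13:31156005-31156864, was 5.95 kb in, with folds of 6.21 and 8.54 (6xHis) and 6.21 and 9.76 (FLAG). Each of these was present in all 4 lists, and which list gave the highest fold changed from site to site. At the start itself, chr13:31161429-31163732 overlapped H3K4me3 by 1502 bp in both H3K4me3 lists, and its folds were lower, between 4.82 and 6.43. Of the 9 sites, 5 had no H3K4me1, H3K27ac or H3K4me3 peak in any list. The strongest 2 were among them, and the one 5.95 kb in had H3K4me1 in 3 of 4 lists.

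HSPA4, a second HSP110 protein (chr5:133052013-133106449, plus strand), held 4 sites, all inside the gene between 25.9 and 41.8 kb from its start and away from H3K4me3. Their folds lay between 3.24 and 5.68, below those of the 3 sites inside HSPH1 given above, and the best placed of them was number 2695 of 5399. Of the 4, 3 had no histone mark in any list.

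HSPA8 encodes the constitutive cytosolic HSP70 (chr11:123057489-123062462, minus strand). Its 3 sites ran from 2.84 kb into the gene to 8.00 kb from its 5′ end, which is 3.02 kb past the 3′ end. The last, chr11:123052996-123055938, was the best ranked, at number 671, with folds of 7.27 and 4.95 in the 6xHis lists and 6.10 and 6.98 in the FLAG lists. The first touched the edge of the promoter H3K4me3 by 574 bp in the control list and 491 bp in the FOXD2 list, and its folds lay between 3.03 and 4.65. Folds were higher from site to site along the gene in each tag list except the second 6xHis list, where the middle site was highest at 8.07. The small nucleolar RNA genes SNORD14C, SNORD14D and SNORD14E lie in the same window.

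HSPA5, the HSP70 of the endoplasmic reticulum also known as BiP (chr9:125234853-125241343, minus strand), was the only member with no tag site. Each tag list did have peaks in its window, 4 and 3 in the 6xHis lists and 4 and 2 in the FLAG lists. No merged region was held by all 4, but HSPA5 had a site when 3 lists were enough.

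HSP90AA1 encodes the stress-inducible cytosolic HSP90 (chr14:102080742-102139749, minus strand). Its span holds 2 annotated starts 52.7 kb apart, and H3K4me3 covered both in both lists. All 5 tag sites lay past the second start. The broadest, chr14:102073307-102080005, was 6699 bp wide and entirely past the 3′ end of the gene, with its midpoint 4.09 kb beyond it. Its folds were 6.65 and 5.94 (6xHis) and 4.76 and 7.22 (FLAG). A site of 1489 bp, chr14:102085052-102086540, overlapped the H3K4me3 just past the second start by 1067 bp in both lists and had folds of 3.91 and 5.87 (6xHis) and 3.19 and 4.91 (FLAG). The outermost site, with its midpoint 9.29 kb past the gene, was the only one of the 5 with MLL4, in all 4 lists, and it touched H3K4me3 in the control list alone, by 868 bp. In that flank the gene table has no protein-coding gene, but the 7SL RNA pseudogene RN7SL472P lies under the broad site.

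HSP90AB1, the constitutive cytosolic HSP90 (chr6:44246194-44253883, plus strand), held 2 sites. The stronger, chr6:44252577-44256508, straddled the 3′ end and had folds of 6.14 and 6.54 (6xHis) and 4.40 and 6.72 (FLAG). It touched H3K4me3 by 433 bp in the control and 386 bp in the FOXD2 list. Its midpoint, however, was 8.35 kb from the 5′ end of HSP90AB1, and the gene SLC35B2 lies in the same window. The other site, inside HSP90AB1, was among the weakest of all tag sites, at number 5339 of 5399, with folds between 2.87 and 4.00.

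DNAJB1, the HSP40 that partners the inducible HSP70 (chr19:14514769-14560391, minus strand), held 2 sites, both with midpoints past the 3′ end. The stronger, chr19:14512067-14515445, began inside the last part of the gene, had its midpoint 1.01 kb beyond the gene, and showed folds between 3.83 and 7.73. The other, chr19:14510692-14511596, was number 4195 of 5399 and touched H3K4me3 in the control list alone, by 877 bp. H3K4me1 and H3K27ac were present at both sites in all 4 lists each.

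DNAJA1, a J protein that works with HSPA8 (chr9:33025273-33039907, plus strand), held 3 sites, none at H3K4me3 and none with any histone mark. One of them, chr9:33032190-33039294, was 7105 bp wide, the broadest of the 36, and its folds were 6.64 and 8.12 (6xHis) and 6.97 and 6.68 (FLAG). It was number 28 of 5399. Another lay just past the gene, chr9:33040140-33041709, with folds of 6.50, 6.77, 7.69 and 5.47 in the same order. Both were close in fold, and neither was near the promoter.

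HSPD1 and HSPE1 encode the mitochondrial chaperonin HSP60 and its lid HSP10. They are divergent neighbours (chr2:197486584-197500274 on the minus strand and chr2:197500379-197503449 on the plus strand) and share the stretch printed above, so most of the sites belong to both windows: HSPD1 held 8, HSPE1 6, and every HSPE1 site was also in the HSPD1 window. The strongest, chr2:197488302-197494182, was 5881 bp wide, inside HSPD1, with folds of 5.19 and 7.73 (6xHis) and 7.25 and 9.13 (FLAG). The shared promoter had a site of 1354 bp, chr2:197499886-197501239, which lay wholly under H3K4me3 in both lists and had lower folds, of 5.96 at most. A second site at H3K4me3, chr2:197501546-197502628, was inside HSPE1, with folds between 3.59 and 6.35. In HSPD1, 3 of the 8 sites had no histone mark in any list.

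Across the 36 sites, 14 (38.9%) had no H3K4me1, H3K27ac or H3K4me3 peak in any list, against 21.2% of all tag sites. H3K4me1 of all 4 lists was at 15 sites, H3K27ac of all 4 at 8, and MLL4 of any list at 4. The sites were 553 to 7105 bp wide with a median of 1539 bp, against 1214 bp over all tag sites. These shares are descriptions of sites that share genes and libraries.

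At the 16 annotated starts of the 10 genes, H3K4me3 was present in both lists at all 16, whereas a tag peak lay over few of them. The HSPH1 start was under tag peaks of 3 lists, those of HSPA8, HSPD1 (the first) and HSPE1 under a peak of 1 list each, and 12 starts were under none.

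The share of each window under tag peaks allows genes of different length to be compared. HSPD1 had 48.5% and 28.3% of its window under peaks in the 6xHis lists and 44.2% and 43.8% in the FLAG lists, 41.2% ± 8.84 (SD, n = 4), in place 3 of 19974 genes. HSPE1 was next at 38.5% ± 8.02 (SD, n = 4) and shares most of those peaks. DNAJA1 had 28.1% ± 5.37, HSPA8 23.5% ± 2.93 and HSPH1 22.1% ± 5.98 (SD, n = 4 each), in places 32, 55 and 69. HSP90AA1 and HSP90AB1 both had 12.7%, with SDs of 2.06 and 1.94, HSPA4 9.79% ± 4.06, HSPA5 6.95% ± 3.10 and DNAJB1 5.27% ± 2.38 (SD, n = 4 each). The median gene had 0.439% and the 99th percentile was 14.7%, so 5 of the 10 were above the 99th percentile. Neighbours in this order lay within the larger of their SDs, except for HSPE1 above DNAJA1 and HSPH1 above the HSP90 genes. HSPA5 was in this order although it had no site: its lists covered 10.8%, 6.97%, 6.84% and 3.21%, with no merged region held by all 4.

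**Figure D2:**
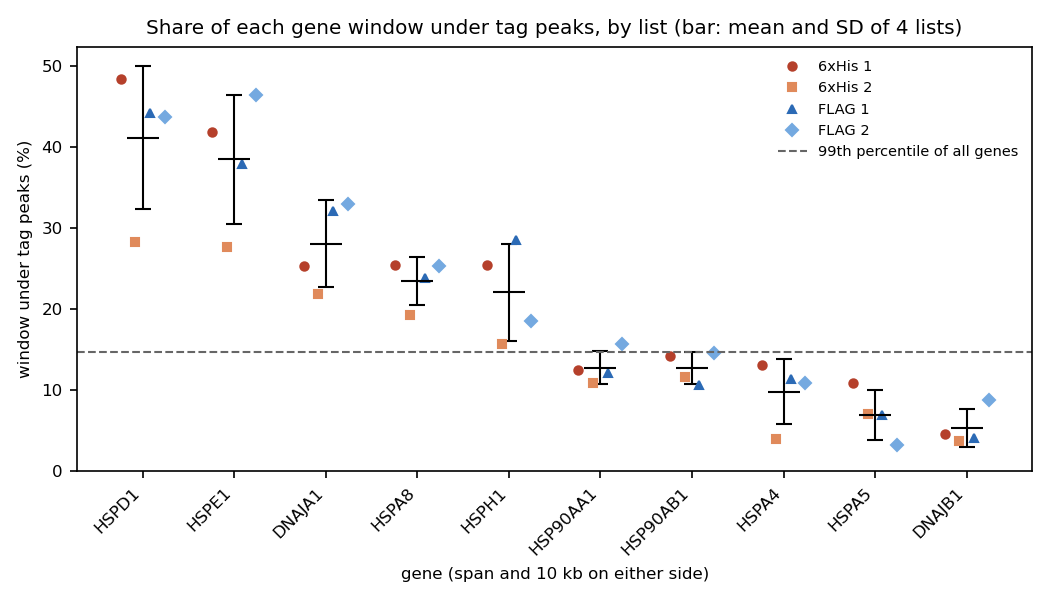
Percent of each gene window under tag peaks; points are the 4 tag lists, and the horizontal mark and bar give their mean and SD. The dashed line is the 99th percentile of all protein-coding genes (14.7%); HSPD1, HSPE1, DNAJA1, HSPA8 and HSPH1 have means above it.

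Position along the gene was then compared by zone, the percent of each 10 kb flank and of the gene span under tag peaks. Over the 10 genes the mean was 11.8% ± 2.23 upstream, 27.1% ± 2.85 in the span and 24.3% ± 6.29 downstream (SD over the 4 lists, n = 4). Over 11733 other genes with H3K4me3 in both lists and a known strand it was 2.10% ± 0.573, 2.17% ± 0.535 and 1.40% ± 0.399. In those other genes the downstream flank had the lowest mean, and in the 10 members the upstream flank had it. The downstream flank was more covered than the upstream one in every tag list for 5 of the 10 members, against 3.89% of the others. The median gene with H3K4me3 had 0.829% of its window under tag peaks, so most others could not meet this in all 4 lists, and nothing is read from that count. They were HSPH1, HSPA8, HSP90AA1, HSP90AB1 and DNAJB1. HSP90AA1 had 66.6% and 57.2% (6xHis) and 57.9% and 86.2% (FLAG) of its downstream 10 kb under tag peaks, and 0%, 0%, 0% and 7.67% upstream. In DNAJB1 the downstream flank had 24.7%, 19.8%, 22.5% and 37.7%, and no list had a tag peak in the 10 kb before the span. HSPA8 had 34.1% ± 5.26 downstream and 4.67% ± 3.98 upstream (SD, n = 4). HSPA4 had 3.88%, 0%, 3.63% and 0% upstream and 0%, 0%, 0% and 1.87% downstream, so its flanks had no common order over the lists, and 13.0% ± 5.25 of its span was covered (SD, n = 4). For HSPD1 and HSPE1 the upstream flank of one gene is the body of the other, so their zones share bases.

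**Figure D3:**
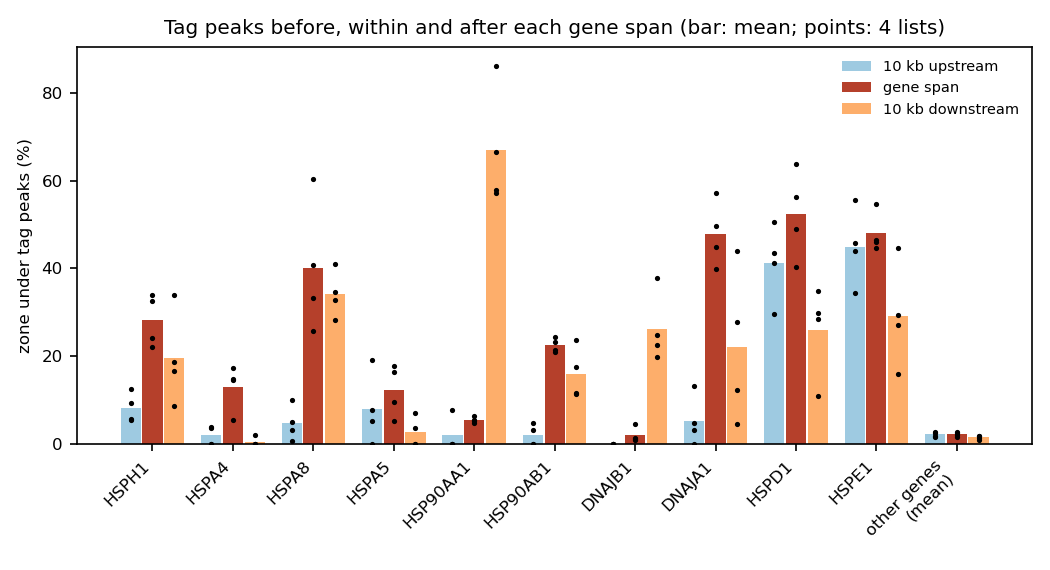
Percent of the 10 kb upstream, the gene span and the 10 kb downstream under tag peaks; bars are means and points the 4 tag lists, with the mean over 11733 other H3K4me3 genes at the right. The downstream bar of HSP90AA1 reaches 67.0%, while all 3 bars of the other genes are between 1.40% and 2.17%.

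H3K4me3 differed little between the FOXD2 and control lists at these genes. With 1 list a group there is no replicate check, and a gene was counted as different when its covered length differed at least 1.5-fold. None of the 10 did, against 1.72% of 14928 genes higher and 5% lower. HSPH1 had 2.59 kb in control and 2.56 kb with FOXD2, HSPA4 4.13 and 3.69 kb, HSPA8 3.60 and 3.52 kb, and HSPA5 2.86 kb in both. HSP90AB1 had 7.14 and 6.62 kb, DNAJA1 2.62 and 2.55 kb, and the HSPD1 and HSPE1 promoter 3.73 and 3.77 kb. The largest differences were at DNAJB1, 11.8 and 8.58 kb, and HSP90AA1, 5.88 and 5.07 kb. These lengths are of whole windows, which can include peaks of other protein-coding genes. Such genes include TECR and NDUFB7 at DNAJB1, WDR20 at HSP90AA1, RABEPK at HSPA5, and APTX and SMU1 at DNAJA1. At DNAJB1 the peak over the start at 31.1 kb from the 5′ end had a fold of 104 in control and 38.8 with FOXD2. The FOXD2 list splits the stretch of that control peak into separate peaks, and 38.8 belongs only to the part over the start. These 2 folds are therefore not of the same stretch. The peak over the 2 starts farther in had 161 and 143.

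For the marks with 2 lists a group, a gene was counted as higher when both FOXD2 lists covered more of its window than both control lists, and lower in the reverse case. With 2 lists against 2 an exact two-sided permutation test cannot give a p below 0.333, which all 8 non-overlapping gene and mark pairs reached, and after adjustment over the 30 pairs the exact test gave p = 1. The outcome of this test is thus set by the number of lists and no other was run, so each difference is given beside the spread between lists. In bulk chromatin, a change in some of the cells and a smaller change in all of them cannot be told apart.

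H3K4me1 was higher for 3 of 10 genes, against 40.9% of 17473 genes, and lower for 1, against 11.5%, so neither count stands above the background. The FOXD2 lists also covered more of the genome, 164 and 177 Mb against 146 and 121 Mb in control, and the part of that in these counts was not tested. The count of higher genes was 8 without the first control list and 5 without the first FOXD2 list, where the shares over all genes were 72.2% and 49.5%. That of lower genes was 5 without the second control list and 2 without the first FOXD2 list, against 41.9% and 19.7%. HSPH1 had 6.13 and 3.28 kb of H3K4me1 in control and 9.23 and 10.7 kb with FOXD2, means of 4.70 ± 2.02 and 9.99 ± 1.07 kb (SD, n = 2), a difference of 5.29 kb. Of that, chr13:31154203-31157361 inside the gene had 778 bp and none in control and 2600 and 3154 bp with FOXD2, and it holds the tag site 5.95 kb in. Another region, chr13:31166057-31169017, upstream of the gene, had 711 bp and none in control and 1953 and 2961 bp with FOXD2. HSPA4 had 15.3 and 12.3 kb in control and 21.6 and 25.7 kb with FOXD2, means of 13.8 ± 2.16 and 23.7 ± 2.90 kb (SD, n = 2). The widest difference was in 1 region over the first part of the gene, chr5:133053061-133066377, with 7529 and 5727 bp in control and 11907 and 12846 bp with FOXD2. Its tag sites lie farther in, and no H3K4me1 peak of any list touched them. DNAJA1 differed least of the 3, with 4101 and 3478 bp in control and 4696 and 4664 bp with FOXD2, means of 3.79 ± 0.441 and 4.68 ± 0.0226 kb (SD, n = 2).

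HSPA5 was the member with less H3K4me1, 8.87 and 7.56 kb in control and 5.99 and 6.25 kb with FOXD2, means of 8.22 ± 0.928 and 6.12 ± 0.181 kb (SD, n = 2). Both regions flanking its promoter were narrower: chr9:125237142-125240751 had 3389 and 2997 bp in control and 2091 and 2339 bp with FOXD2, and chr9:125242074-125246961 had 4888 and 4565 bp and then 3901 and 3909 bp. The sign turned to +2.76 kb when the window was widened to 50 kb. The other 6 genes overlapped between groups, among them HSP90AB1 with 16.2 and 11.1 kb against 12.4 and 10.1 kb, and the HSPD1 and HSPE1 window with 5.89 and 3.65 kb against 4.36 and 4.24 kb.

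**Figure D4:**
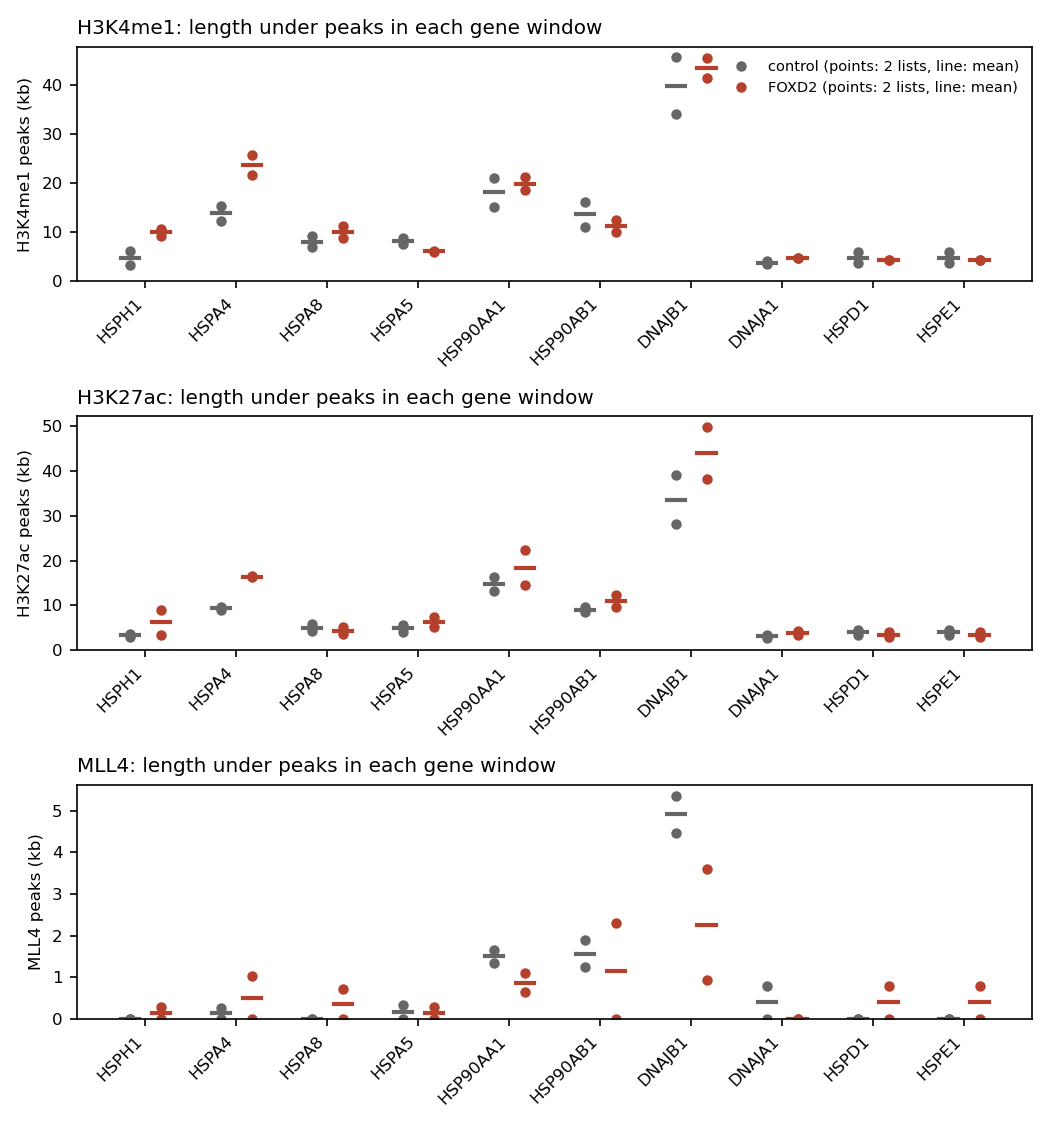
Length in kb under H3K4me1, H3K27ac and MLL4 peaks in each gene window; gray points are the 2 control lists, red points the 2 FOXD2 lists, and lines the means. With FOXD2 higher, the groups are apart for HSPH1, HSPA4 and DNAJA1 in H3K4me1 and for HSPA4 and, narrowly, HSP90AB1 in H3K27ac. With FOXD2 lower, they are apart for HSPA5 in H3K4me1 and for HSP90AA1 and DNAJB1 in MLL4. In MLL4 at least 1 of the 2 FOXD2 points is at 0 for 8 of the 10 genes.

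H3K27ac was higher for 2 of 10 genes, against 29.1% of 17314 genes, and lower for none, against 4.19%. The lists covered 111 and 171 Mb with FOXD2 and 132 and 89.3 Mb in control, and the part of that was not tested. The count of higher genes was 5 without the first control list, 4 without the second and 6 without the first FOXD2 list. The shares of all genes were 58.9%, 34.8% and 72.1%. HSPA8 and the shared HSPD1 and HSPE1 locus, counted as 3 genes, were lower without the first control or the first FOXD2 list, against 8.3% and 8.55%. HSPA4 had 9.65 and 9.05 kb in control and 16.5 and 16.3 kb with FOXD2, means of 9.35 ± 0.424 and 16.4 ± 0.163 kb (SD, n = 2), a 1.76-fold difference. Within it, chr5:133058010-133059622 and chr5:133061213-133061944, at 6.80 and 9.57 kb from the start and under the H3K4me1 region above, had H3K27ac in both FOXD2 lists and in neither control list. HSP90AB1 had 8.48 and 9.60 kb in control and 9.66 and 12.4 kb with FOXD2, so its groups were apart by under 0.1 kb, and they overlapped in windows of 0, 2 and 50 kb and at the stricter q threshold. The difference of the means was 1.99 kb, with SDs of 0.794 kb in control and 1.93 kb with FOXD2 (n = 2 each). HSPH1 had 3.70 and 2.85 kb in control and 9.05 and 3.41 kb with FOXD2: 1 FOXD2 list stood well above the other 3. DNAJB1 had 39.1 and 28.1 kb in control and 38.1 and 49.9 kb with FOXD2, with overlap. Over the 10 genes the median difference was 5.11 percentage points of the window for H3K27ac and 2.44 for H3K4me1, against 1.81 and 0.929 over all genes with coverage. The latter take in every gene with any covered base, whereas all 10 members have H3K4me3. The sets are not matched for how much is covered, so nothing is read from this contrast.

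MLL4 was found in at least 1 list at all 10 genes, against 66.2% of all genes and 83% of those with H3K4me3. It was higher with FOXD2 for none of them, against 2.2% of 13216 genes, and lower for 2, against 16.7%. The second FOXD2 list has 4676 peaks where the first has 22493 and the control lists 16046 and 13571, and its part in these values was not tested. Without it 6 genes were higher, against 51.8% of all genes, and without the second control list 4 were lower, against 39.1%. Without the first FOXD2 list MLL4 was found at 6 of the 10, where 11085 of 19974 genes had it. HSP90AA1 had 1.66 and 1.35 kb in control and 1.10 and 0.644 kb with FOXD2, a difference of means of -0.633 kb with SDs of 0.223 and 0.320 kb (n = 2 each). Of this, the region 68.2 kb from the 5′ end, which lies under the outermost tag site, was nearly even, with 741 and 696 bp in control and 650 and 644 bp with FOXD2. A merged region at the first start, chr14:102139019-102139806, had 615 and 649 bp in control, 446 bp in the first FOXD2 list and none in the second, and only the peak of the first FOXD2 list covered the start base itself. DNAJB1 had 4.47 and 5.35 kb in control and 3.60 and 0.929 kb with FOXD2, means of 4.91 ± 0.622 and 2.26 ± 1.89 kb (SD, n = 2), and it overlapped between groups in windows of 0, 2 and 50 kb. At the starts, MLL4 peaks of the first FOXD2 list covered 6 of 16, those of the first control list 2, and those of the other lists none. HSPH1, HSPA8 and the HSPD1 and HSPE1 window had MLL4 in the first FOXD2 list alone, at 0.281, 0.728 and 0.800 kb.

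The wider chaperone network was described with 83 other genes in 8 lists, chosen with earlier results of these data known. Nothing is therefore read from the tag counts of these genes. All 83 had H3K4me3 in both lists, and 38 had a tag site, where 23.1% of H3K4me3 genes do. By class, these were 5 of 10 HSP70 and HSP110 genes, 1 of 2 HSP90 genes, 7 of 16 J proteins, 0 of 4 small heat shock proteins, 9 of 14 genes of the cytosolic chaperonin TRiC and prefoldin, 10 of 20 cochaperones, 3 of 10 endoplasmic reticulum folding genes and 3 of 7 stress regulators. DNAJA4, a J protein, had 41.5% ± 5.56 of its window under tag peaks, DNAJB6, a J protein that holds back aggregation, 37.7% ± 5.17, TCP1, a TRiC subunit, 35.3% ± 9.61, and HSPA9, the mitochondrial HSP70, 35.2% ± 5.85 (SD, n = 4 each). BAG3, a cochaperone that links HSP70 to autophagy, had 28.4% ± 6.18, and PTGES3, the HSP90 cochaperone p23, 26.0% ± 6.16 (SD, n = 4 each). ST13, the HSP70 cochaperone Hip, had 9 sites and none at H3K4me3, and HSPA9 had 7 and none. CHORDC1, an HSP90 cochaperone, ranked first of the 83 by its best peaks and had 2 of 6 sites at H3K4me3. FKBP5, an HSP90 cochaperone that binds steroid receptor complexes, had 2 sites in a long window of which 2.67% ± 0.865 (SD, n = 4) was covered. The remaining genes named by the rule were HSP90B1 with 4 sites, CCT4 with 6 and HSPA4L with 2.

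In the 83 genes, H3K4me1 was higher with FOXD2 for 22 and lower for 5, against 40.9% and 11.5% of all genes. H3K27ac was higher for 25 and lower for 4, against 29.1% and 4.19%. MLL4 was higher for 0 and lower for 9 of the 66 with any, against 2.2% and 16.7%. These counts lay near or below the shares over all genes, so nothing is read from them. The genes named next were picked for the largest differences. BAG3 had 13.2 and 11.3 kb of H3K27ac in control and 26.8 and 29.2 kb with FOXD2. DNAJC5, a J protein of secretory vesicles, had 10.4 and 3.26 kb and then 19.4 and 32.8 kb. PFDN1, a prefoldin subunit, was apart in both marks, with 19.4 kb of H3K4me1 in both control lists and 26.7 and 30.0 kb with FOXD2, and 7.18 and 10.6 kb of H3K27ac against 17.3 and 15.8 kb. ATF6 and DNAJC3, of the endoplasmic reticulum stress response, had 9.07 and 7.97 kb more H3K4me1 on average, in windows of 218 and 138 kb. HSPA5, of the same response, had less in a window of 26.5 kb, so these lengths are not compared. PFDN4 was lower in both marks, with mean differences of -2.06 kb of H3K4me1 and -1.36 kb of H3K27ac. DNAJB12, a J protein, and SERPINH1, the collagen chaperone HSP47, differed by -2.35 and -2.13 kb of H3K4me1. CCT3, a TRiC subunit, and AHSA1, which activates HSP90, differed by -1.19 and -0.511 kb of H3K27ac, and DNAJB2 and PFDN6 by -1.07 and -0.795 kb of MLL4. FKBP5 had 2.87 and 2.96 kb of MLL4 in control and 0.902 and 0.823 kb with FOXD2, and here both FOXD2 lists were alike.

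By the percent of the window covered in each of the 18 lists, the genes nearest to HSPH1 were EIF2S2, a translation initiation factor subunit, MDM2, the ubiquitin ligase of p53, and RIOK3, a kinase. Their Euclidean distances were 14.0, 14.8 and 15.1 percentage points, where the median gene was at 57.1. MDM2 had 13 tag sites, EIF2S2 3 and RIOK3 5. The distance uses all 18 lists, so it also reads the tag peaks that chose HSPH1.

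H3K4me3 in both lists was looked up at markers of cell types. Colon epithelium did not have a higher share of markers with it than fibroblasts and endothelium, so the cell type is not identified. Of 9 colon epithelium markers 6 had it, and KRT20, CDX1 and VIL1 did not. Of the markers of other cells, 1 of 4 for blood, 3 of 4 for fibroblasts and endothelium and 2 of 4 for neural cells had it. Their summed length was 27.9 kb in control and 25.9 kb with FOXD2 for the colon list, 1.17 and 0.559 kb for blood, 4.26 and 3.88 kb for fibroblasts and endothelium, and 6.54 and 4.30 kb for neural cells.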

How the data were processed

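Per the submitters' processing notes, reads were handled with Bowtie2 2.3.4.1, cutadapt 3.4, Picard and bedtools, peaks with MACS2 2.2.7.1, and the build was hg38. Each library has its own narrowPeak file, so no replicates were pooled. In these deposited files a peak carries a score, a fold enrichment (a ratio) and −log10 of its q-value and p-value, with q up to 0.01. The library used as background, the read depth and the treatment of reads that also match processed pseudogenes are not given in the sources used here.

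Gene spans came from RefSeq (GRCh38.p14), which matched all 10 genes, and upstream sequences from its promoter table. Each gene's window was its span with 10 kb on either side. Lists were merged with a gap of 0 bp, and an overlap was at least 1 bp. Covered length is the number of bases of a window under peaks, and groups were set apart when they did not overlap. Means of the groups were tested by exact permutation, with adjustment by Benjamini-Hochberg over 30 tests. Same-numbered lists were not taken as pairs. The members and lists were chosen with earlier results of these data known. Of the 83 other chaperone genes, the text names up to 12 with a tag site by best summed rank, and up to 3 per mark and direction by the largest difference between groups that do not overlap. Other windows, a stricter q, equal list lengths, other site rules and leaving out each library were tried. Python 3.11.15, numpy 2.4.6, pandas 2.3.3, scipy 1.17.1 and matplotlib 3.10.9 were used, and the scripts were tested on simulated data.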

Additional observations from a re-analysis of the deposited data

How the results depend on the processing

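Of the differences of single genes under the other settings, 248 stayed within the spread between lists, 20 moved and 2 were counted as turned. Leaving out a list shifts a group mean by no more than the SD used as that spread. Those settings could therefore only count as stayed, and nothing is read from their part of the 248. The 2 that turned were HSPA5 H3K4me1, to 2.76 kb in a 50 kb window, and HSP90AB1 H3K27ac, to -0.0805 kb in the gene span alone. A turn was counted only where the groups lay apart at first. Some pairs that overlapped also changed sign and were counted as stayed or moved. HSPD1 H3K4me1 went from -0.471 to 4.755 kb in the 50 kb window. DNAJB1 H3K4me1 went from 3.68 to -2.08 kb without the second control list. HSPH1 and HSPA4 H3K4me1, HSPA4 H3K27ac and HSP90AA1 MLL4 kept their groups apart under all 9 alternatives run for each, and DNAJA1 and HSPA5 H3K4me1 under 8. Leaving out a list cannot make separate groups overlap. Among the 9, only the other windows, the stricter q and equal list lengths could have changed a call. In the 50 kb window H3K4me1 was higher for 6 genes and lower for 0, against 46.5% and 8.97% of all genes, H3K27ac higher for 5, against 27.9%, and MLL4 lower for 1, against 17.9%. With equal list lengths H3K27ac was higher for 5, against 32.6%. Leaving out each library gave H3K4me1 higher for 3 to 8 genes and lower for 1 to 5, H3K27ac higher for 3 to 6 and lower for 0 to 3, and MLL4 higher for 0 to 6 and lower for 2 to 4. H3K4me1 was higher for 8 without control 1 and for 5 without FOXD2 1, and lower for 5 without control 2 and for 2 without FOXD2 1. H3K27ac was higher for 5, 4 and 6 without control 1, control 2 and FOXD2 1, and lower for 3 without control 1 or FOXD2 1. MLL4 was lower for 4 without control 2 and higher for 6 without FOXD2 2. It was found at 6 to 10 genes, 6 without FOXD2 1, where 11085 of 19974 genes had it. It was found at 5 genes in at least 2 lists and at 6 with −log10 q of 5 or more. That threshold left 20 tag sites, 2 of them at H3K4me3, and sites of at least 2 tag lists numbered 66, with 10 at H3K4me3. Without each tag library there were 9 to 10 genes with a site, 38 to 42 sites and 6 to 7 at H3K4me3. Shares of all genes were not computed for these tag counts, nor for MLL4 in at least 2 lists or at the stricter threshold. Nothing is read from those counts. H3K4me3 has 1 library a group, so none could be left out. The causes were not tested. By the definition of the counts, a lone list overlaps less easily and fewer required lists admit more sites.

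Replicate numbers are shared between groups, but same-numbered lists deviated together only weakly or in opposite directions (correlation 0.09 for H3K4me1, -0.54 for H3K27ac and 0.17 for MLL4 across genes). The numbers are those of the labels. The peak names carry 2 and 3 for H3K27ac lists 1 and 2 and 3 for the second MLL4 lists, in both groups alike, and no number for the first MLL4 lists and the first control H3K4me1 list, so where names carry a number in both groups the pairs are the same. With the replicate number as a block, H3K4me1 was higher for 3 and lower for 2 genes (46.7% and 18% of all genes), H3K27ac higher for 5 and lower for 0 (32% and 5.58%), and MLL4 higher for 0 and lower for 2 (3.34% and 25%). With crossed numbers, chosen after seeing the data, H3K27ac was higher for 4 and lower for 3 (55% and 10.6%). Read depth is not known, so no floor can be given.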
